A study of Macaca fascicularis and Macaca mulatta with 24 samples.

Results

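Interferon-stimulated genes and the interferon regulatory factors (IRFs) were followed in cynomolgus macaque cortex once the right middle cerebral artery had been occluded. The 9 genes, IFIT1, IFIT2, IFIT3, ISG15, MX1, MX2, OAS1, IRF1 and IRF7, were found by exact match of the gene symbol in the array annotation, and all their probes are reported. These are 9 of the 15763 gene symbols on the array, and they were read by 10 of its 20217 gene probes, 1 probe for each gene and 2 for OAS1. Of these, 9 probes of 8 genes passed the filter on dim probes, and MX2 did not.

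The arrays held 8 groups of 3, from 12 animals that each gave a right and a left sample, as read from the labels. The groups were ischemic right and non-ischemic left cortex of animals given TatNR2B9c, and the same sides of animals given placebo. Each was sampled 6 h or 1 h after the occlusion. TatNR2B9c, a cell-penetrating peptide that uncouples the NMDA receptor from the scaffold PSD-95, was given intravenously at 2.6 mg/kg, 5 min after the occlusion. Every animal had the right-sided occlusion, so the left side is the other hemisphere of an injured brain, and no cortex from an animal without an occlusion was analysed here. The tissue was flash-frozen cortical biopsy, a mixture of cell types, so fewer cells of a type and less RNA per cell cannot be told apart. The labels used here give no strain, sex or age. Each of the 24 arrays set sample RNA in Cy5 against a Universal Reference RNA of rhesus macaque in Cy3, with no dye swap. Levels below are log2 ratios of sample to reference, normalised within each array. So 0 means the ratio typical of probes of like intensity on that array, not equal signal in both dyes. A fall can come from less Cy5 or from more Cy3, and the level of each dye is given where it matters.

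Type I and type II interferons signal through JAK kinases and STAT factors to switch on many genes, a good part of them antiviral. IRF7 is the factor that amplifies type I interferon production, and IRF1 is a factor that type II interferon induces strongly. The IFIT proteins bind foreign RNA, ISG15 is a ubiquitin-like modifier, MX1 and MX2 are dynamin-like GTPases that trap viral components, and OAS1 makes the 2′-5′ oligoadenylates that activate RNase L. In the brain, microglia, astrocytes, endothelial cells and infiltrating leukocytes can all carry this programme.

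The probes decide what was read, so the last 30 bases of each 60-base probe are shown 5′ to 3′, as the array files give them. Capitals mark AATAAA, the usual signal for poly(A) addition, searched on the probe's own strand alone; it lay in 3 of the 10 probes, those of ISG15, MX1 and MX2, and in 12.8% of all probes on the array.
IRF7: gctggagcagcccgtctagagcccagtcta
IRF1: ggaatgtcatctaaccattaagtcatgtgt
IFIT1: aggcacccagatatcagccactttcacatt
IFIT2: ggatgcaaaatttgtattcctgaaaatgcc
IFIT3: ttttgcatgttgctttaaagtacattttta
ISG15: attcgagcaagatcaagggctggaAATAAA
MX1: ctgtctcctccgtttgtAATAAActtattt
MX2: aagaggaatttAATAAAgcaaagagacttt
OAS1 probe 1: gacatgcaccatcctctgaatgccagtgca
OAS1 probe 2: atcccttgtccagagttcattcccctaaaa

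In the files' coordinates, on the rhesus build rheMac2, the IRF7 probe lay at chr14:420875-420934 on the minus strand and the IRF1 probe at chr6:128894267-128894326 on the minus strand. The 3 IFIT probes lay within 75.8 kb of chromosome 9 on the plus strand, IFIT2 at chr9:88887739-88887798, IFIT3 at chr9:88912509-88912568 and IFIT1 at chr9:88963522-88963581. The ISG15 probe lay at chr1:4091885-4091944 on the plus strand. MX1, at chr3:5187741-5187800, and MX2, at chr3:5229963-5230022, were 42.2 kb apart on the minus strand. OAS1 probe 1, at chr11:113859051-113859110, and OAS1 probe 2, at chr11:113857416-113857475, were 1576 bases apart on the plus strand. Exon and UTR annotation was not used here. MX2 and OAS1 probe 2 carried their gene name in 1 of the 3 annotation versions among the files, and the other 8 probes in all 3. A rhesus probe can read a cynomolgus transcript low where the sequences differ.

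The arrays were not of even quality. They were scanned in 3 campaigns with different software versions: all TatNR2B9c arrays in one, all placebo 6 h arrays in another and all placebo 1 h arrays in the remaining one. The reference dye cleared the background in 51.8% to 99.3% of probes on 18 arrays and in 15.7% to 51.7% on the 6 placebo 1 h arrays. The spread (SD) of log2 ratios over probes was 0.8 to 1.39 on TatNR2B9c arrays, 1.49 to 1.65 on placebo 6 h arrays and 0.37 to 1.08 on placebo 1 h arrays. Campaign therefore cannot be told apart from treatment, nor from time under placebo, whereas right against left and 6 h against 1 h under TatNR2B9c each lay within a campaign. Within the TatNR2B9c campaign, animals 1 and 2 at 6 h shared a slide and scan day of their own, and animal 3 at 6 h was scanned on the day, and on a slide, of the 1 h arrays; the ratios of animal 3 had SDs of 0.97 and 0.98, and those of the other 2 animals 1.07 to 1.39. Time under TatNR2B9c thus follows scan day for 2 of 3 animals, and what sets animal 3 apart cannot be told apart from its slide and scan day. The TatNR2B9c left array of animal 1 at 6 h stood apart in Cy5, with 97.7% of probes above background low levels of IFIT1 (7.54) and IFIT2 (6.46), and OAS1 probe 1 at 10.61, where the next highest of the 24 arrays was at 7.79. Neuron markers were well above background in Cy5 on at least 20 arrays for 9 of 9 kept genes, astrocyte markers for 8 of 8 and oligodendrocyte markers for 7 of 7.

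The members differed in how well they were detected. In Cy5, IFIT1, IFIT2, ISG15 and MX1 were well above background on all 24 arrays, IFIT3 and IRF1 on 23, IRF7 on 20 and OAS1 probe 1 on 17. OAS1 probe 2 was well above background on 7 arrays, none of them at 1 h, and it passed the filter only through placebo right cortex at 6 h; MX2 was well above it on 6 arrays. IRF7 reached that level on 1 of 3 TatNR2B9c right arrays at 1 h and on 2 of 3 in each left group at 1 h. On the placebo 1 h arrays the reference dye was well above background for IFIT1, IFIT2, ISG15 and MX1 on 4 of 6 arrays, for IFIT3, IRF1 and IRF7 on 3 of 6, and for OAS1 and MX2 on none.

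**Figure D1:**
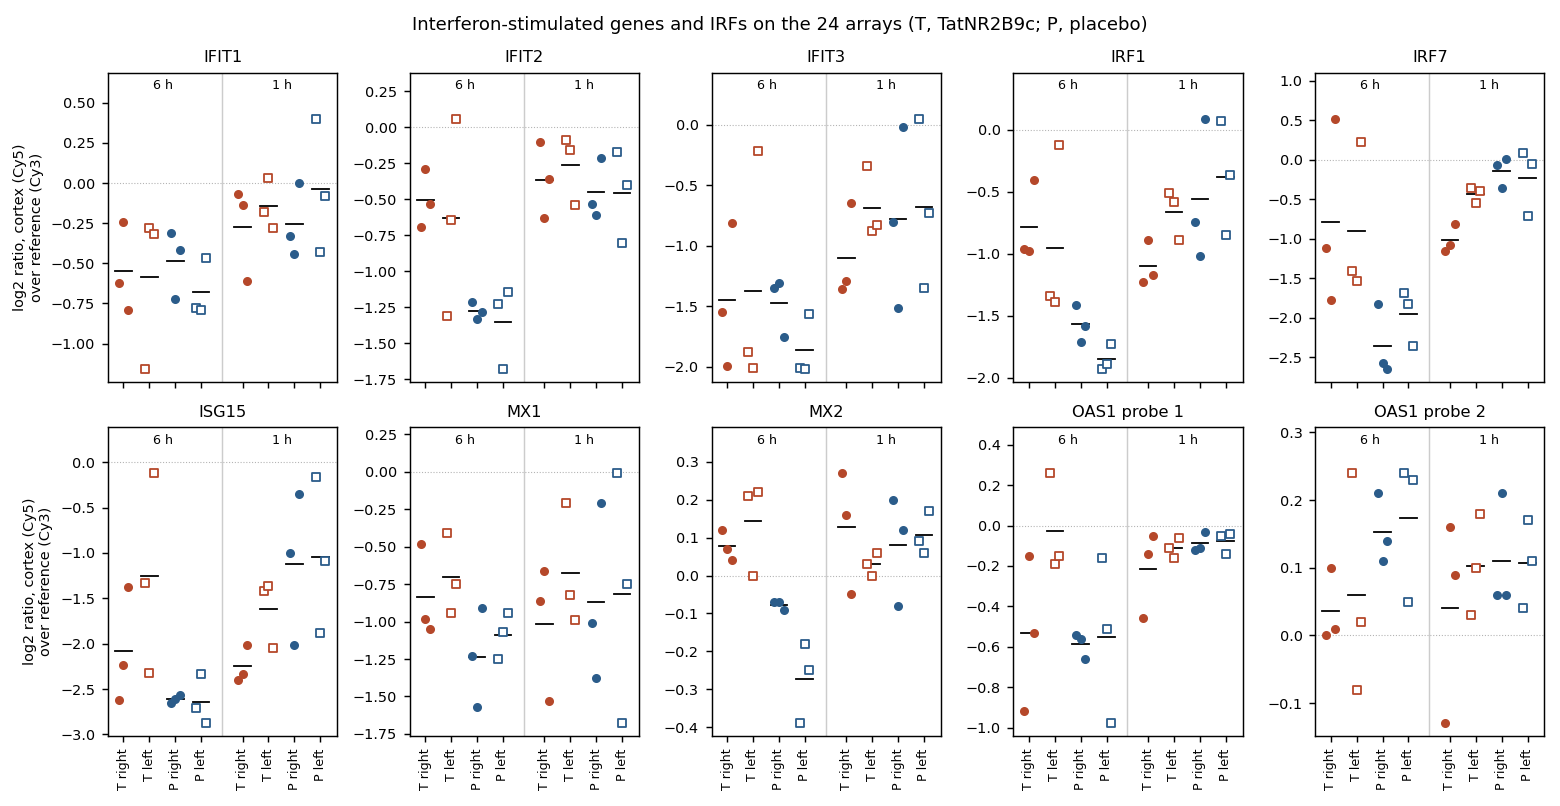
Log2 ratio of sample (Cy5) to reference (Cy3) for the 10 probes, 1 panel each, in the 8 groups. Filled circles are right cortex and open squares left cortex, 1 per array (n = 3), and bars are group means; the placebo 6 h arrays of IRF7 lie between -1.69 and -2.65, below every placebo 1 h array.

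IRF7 had the widest range of group means of the 10 probes, 2.21 on the log2 scale. At 6 h its log2 ratios were -1.12, -1.77 and 0.52 in TatNR2B9c right, -1.41, -1.53 and 0.23 in TatNR2B9c left, -1.83, -2.57 and -2.65 in placebo right, and -1.69, -1.82 and -2.36 in placebo left. At 1 h they were -1.15, -1.08 and -0.81 in TatNR2B9c right cortex, -0.36, -0.55 and -0.40 in TatNR2B9c left, -0.06, -0.36 and 0.01 in placebo right, and 0.09, -0.71 and -0.05 in placebo left. Both arrays of TatNR2B9c animal 3 at 6 h stood above 0, while the other 4 TatNR2B9c arrays at 6 h and all 6 placebo arrays at 6 h stood below -1. Cy5 was highest in the same animal, at 9.88 (right) and 9.41 (left) log2 units, with 6.83 to 7.99 on the other 4 TatNR2B9c arrays at 6 h. In order of group mean, from -0.14 in placebo right at 1 h to -2.35 in placebo right at 6 h, the arrays of 6 of 7 neighbouring groups overlapped. The exception was TatNR2B9c right at 1 h (-1.01) against placebo left at 6 h (-1.96).

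IRF1 ran in a narrower band. At 6 h its log2 ratios were -0.96, -0.98 and -0.40 in TatNR2B9c right, -1.34, -1.39 and -0.12 in TatNR2B9c left, -1.41, -1.71 and -1.58 in placebo right, and -1.93, -1.89 and -1.73 in placebo left. At 1 h they were -1.23, -0.89 and -1.17 in TatNR2B9c right, -0.51, -0.58 and -0.89 in TatNR2B9c left, -0.74, -1.02 and 0.09 in placebo right, and 0.07, -0.85 and -0.36 in placebo left. The 6 placebo arrays at 6 h were the 6 lowest of the 24, and TatNR2B9c animal 3 at 6 h was again the highest of its group on each side. Of 7 neighbouring groups in the order of means, 5 overlapped.

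ISG15 had a negative log2 ratio on every array. At 6 h its log2 ratios were -2.62, -2.23 and -1.38 in TatNR2B9c right, -1.33, -2.32 and -0.12 in TatNR2B9c left, -2.65, -2.61 and -2.57 in placebo right, and -2.71, -2.33 and -2.88 in placebo left. At 1 h they were -2.40, -2.33 and -2.01 in TatNR2B9c right, -1.42, -1.37 and -2.05 in TatNR2B9c left, -1, -2.01 and -0.35 in placebo right, and -0.16, -1.88 and -1.09 in placebo left. Placebo arrays at 6 h were tight, whereas the 3 TatNR2B9c left arrays at 6 h were far apart, with animal 3 on top.

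The IFIT genes, neighbours on the chromosome, did not share one level. IFIT1 had log2 ratios between -1.16 and 0.40 (median -0.32), and its group means covered 0.64. IFIT2 had, at 6 h, log2 ratios of -0.69, -0.29 and -0.53 in TatNR2B9c right, -1.31, -0.64 and 0.06 in TatNR2B9c left, -1.21, -1.33 and -1.28 in placebo right, and -1.23, -1.68 and -1.14 in placebo left. At 1 h every IFIT2 array lay between -0.80 and -0.09. IFIT3 was more scattered, between -2.02 and 0.05 (median -1.33), with TatNR2B9c animal 3 at -0.22 (left) and -0.81 (right) at 6 h against -1.55 to -2.01 for the other 2 animals of that group.

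MX1 lay between -1.68 and -0.01 with a median of -0.94, and the arrays of all 7 neighbouring groups overlapped. OAS1 probe 1 lay between -0.98 and 0.26, and OAS1 probe 2, between -0.13 and 0.24, was close to the limit of detection. MX2 lay between -0.39 and 0.27 with Cy5 of 6.24 to 6.93, and it was well above background on 1 TatNR2B9c left array at 6 h, 2 placebo left arrays at 6 h and 3 placebo arrays at 1 h. No comparison of MX2 was tested.

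Ischemic right cortex was compared with non-ischemic left cortex, which asks whether the genes moved with the infarct within these hours. None of the 9 probes passed in any of the 4 sets of animals or in the pooled comparison (limma, Benjamini-Hochberg adjusted p under 0.05), and 0% of all probes passed in each of those 5 comparisons. The 36 differences, right minus left, lay between -0.82 and 0.39 on the log2 scale, with a smallest adjusted p of 0.923. At an unadjusted p under 0.05 there was 1, OAS1 probe 1 under TatNR2B9c at 6 h (-0.51, unadjusted p = 0.017, limma), where 3.34% of all probes reached that level. Its 3 animals differed by -1.18, 0.04 and -0.37, and the first is animal 1, whose left array stood apart.

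Pooled over the 4 sets, the right minus left difference was largest for ISG15, at -0.37 (SE 0.25, 95% interval -0.89 to 0.14), and it was -0.19 for IRF7 (95% interval -0.68 to 0.30) and -0.04 for IRF1 (95% interval -0.37 to 0.29). IFIT1 differed by -0.03 (95% interval -0.28 to 0.23), IFIT2 by 0.03 (95% interval -0.24 to 0.30), IFIT3 by -0.05 (95% interval -0.53 to 0.42) and MX1 by -0.17 (95% interval -0.55 to 0.21). The intervals had half-widths of at most 0.52, and differences inside them could not be told from 0 at this number of animals. By animal, IRF7 was lower on the right in 8 of 12 and ISG15 in 7 of 12, and no member was higher or lower on the right in more than 8. The 9 animals with both sides on 1 slide gave a mean of -0.51 for ISG15 and -0.13 for IRF7.

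**Figure D2:**
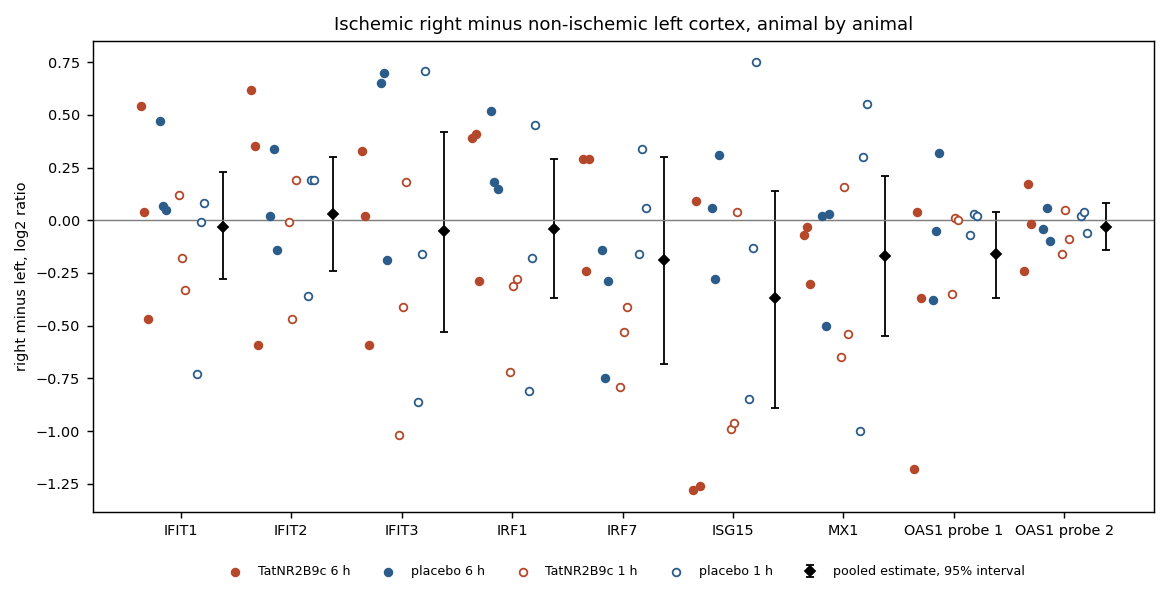
Difference in log2 ratio, right minus left cortex, for each probe, with 1 point per animal (n = 12; filled 6 h, open 1 h) and the pooled estimate with its 95% interval. The intervals of all 9 tested probes cover 0, and ISG15 has the largest estimate, -0.37.

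At 1 h under TatNR2B9c all 9 differences were below 0, with a median of -0.34 against -0.03 over all probes, and the 3 right arrays of IRF7 lay below the 3 left ones (-0.58, adjusted p = 0.923, limma). Non-overlap of that direction was seen for 12.2% of all probes. At 6 h under placebo, IRF1 did not overlap in the other direction, as did 4.48% of all probes. The wider pathway was as quiet: of 6 interferon genes, 9 receptor and kinase genes, 10 STAT and brake genes, 7 other IRFs, 11 nucleic acid sensor genes and 36 other interferon-stimulated genes, none passed in the pooled comparison, and list medians lay between -0.07 and -0.02 against 0 over all probes. The lists of cell markers gave no pooled call either, with medians between -0.28 (meninges and choroid plexus) and 0.48 (oligodendrocytes). Astrocyte markers had a median of 0.25, neuron markers 0.16, and microglia and macrophage markers -0.15.

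TatNR2B9c was then compared with placebo on each side and at each time. At 1 h no member passed on either side (limma), against 1.58% of all probes on the right and 0.865% on the left. At an unadjusted p under 0.05 there was 1 on the right and none on the left: ISG15 on the right differed by -1.13 (SE 0.49, 95% interval -2.16 to -0.09, adjusted p = 0.315). IRF7 on the right was -0.87 (SE 0.47, 95% interval -1.86 to 0.11), and its 3 TatNR2B9c arrays lay below the 3 placebo arrays, as did those of 13.8% of all probes.

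Read from the Cy5 dye alone, after quantile normalisation, the 3 IFIT genes were lower in TatNR2B9c cortex at 1 h. IFIT1 Cy5 levels were 9.19 to 9.80 on TatNR2B9c arrays and 10.62 to 11.29 on placebo arrays. IFIT2 levels were 8.2 to 8.77 on TatNR2B9c arrays and 9.71 to 10.14 on placebo arrays, and IFIT3 levels were 7.39 to 8.24 and 8.77 to 9.37 on the same arrays. The Cy5 difference passed for IFIT1 (-1.24 right, adjusted p = 0.0491, -1.23 left, adjusted p = 0.0444), for IFIT2 (-1.52 right, adjusted p = 0.00942, -1.43 left, adjusted p = 0.0102) and for IFIT3 (-1.21 right, adjusted p = 0.0266, -1.36 left, adjusted p = 0.0117), all by limma. In the same fits 17% of all probes passed on the right and 21.8% on the left, and the reference dye differed too, by -0.84 (right) and -0.20 (left) for IFIT1 by -1.07 and -0.83 for IFIT2, and by -0.22 and 0.19 for IFIT3. The ratios of IFIT1, IFIT2 and IFIT3 differed by -0.32 to 0.19. Campaign and treatment cannot be told apart here.

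At 6 h, IRF1 and ISG15 were higher in TatNR2B9c left cortex than in placebo left cortex. IRF1 averaged -0.95 ± 0.72 in TatNR2B9c left and -1.85 ± 0.11 in placebo left (SD, n = 3 each), a difference of 0.90 (SE 0.31, 95% interval 0.24 to 1.55, 1.86-fold, adjusted p = 0.0429). ISG15 averaged -1.26 ± 1.1 in TatNR2B9c left and -2.64 ± 0.28 in placebo left, a difference of 1.38 (SE 0.49, 95% interval 0.35 to 2.42, 2.61-fold, adjusted p = 0.0482). For IRF1 the lowest TatNR2B9c array (-1.39) lay above the highest placebo array (-1.73). For ISG15 the same 2 arrays nearly met, at -2.32 and -2.33. IRF1 and ISG15 were the 2 calls of 9 probes, where 24.6% of all probes passed, 10.8% of all as higher.

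Further members missed the threshold in this comparison. The differences were 0.72 for IFIT2 (adjusted p = 0.0506, or 0.0497 with the animal as a random block), 0.52 for OAS1 probe 1 (adjusted p = 0.0543) and 1.05 for IRF7 (adjusted p = 0.107), all by limma. IFIT1 was at 0.09, IFIT3 at 0.49, MX1 at 0.38 and OAS1 probe 2 at -0.12. The groups did not overlap and TatNR2B9c was higher for 3 members, IRF1, IRF7 and ISG15, against 15.4% of all probes. The member median was 0.52 against -0.07 over all probes.

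In right cortex at 6 h no member passed (limma), where 4.3% of all probes did, and 3 had an unadjusted p under 0.05. IRF7 differed by 1.56 (SE 0.47, 95% interval 0.58 to 2.54, adjusted p = 0.0665), IFIT2 by 0.77 (SE 0.26, adjusted p = 0.0963) and IRF1 by 0.79 (SE 0.31, adjusted p = 0.158). TatNR2B9c arrays lay above placebo arrays, with no overlap, in these same 3 genes, against 18.2% of all probes. ISG15 was at 0.53 and MX1 at 0.40, and the arrays of each overlapped.

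On the left at 6 h, Cy5 alone differed by 0.06 for IRF1, 0.28 for ISG15 and 0.04 for IRF7, while Cy3 differed by -0.31, -0.73 and -0.40 in the same order of genes. Cy5 alone differed by 1.40 for OAS1 probe 1 and by 0.43 for MX1, more than their ratios. Most of the OAS1 probe 1 value came from the left array of TatNR2B9c animal 1, which stood apart. It was at 10.61, with the other animals of its group at 7.55 and 7.34, and the placebo left arrays at 7.32, 6.98 and 7. On the right, Cy5 alone differed by 0.42 for IRF7, 0.60 for IRF1 and -0.52 for IFIT2. No member passed in Cy5 alone at 6 h, where 15.4% of all probes did on the left and 7.44% on the right. Without both arrays of TatNR2B9c animal 3, an alternative chosen after seeing the data, the left differences were 0.48 for IRF1 (adjusted p = 0.226) and 0.82 for ISG15 (adjusted p = 0.226), and the right difference of IRF7 was 0.90 (adjusted p = 0.124). Leaving out single arrays also ended the calls, of IRF1 in 9 of 24 cases and of ISG15 in 17 of 24, each of the 3 placebo left 6 h arrays among them for both genes. Without the TatNR2B9c left array of animal 1, the left difference of ISG15 was 1.42 (adjusted p = 0.106) and that of IFIT2 was 1.06 (adjusted p = 0.00916), by limma.

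**Figure D3:**
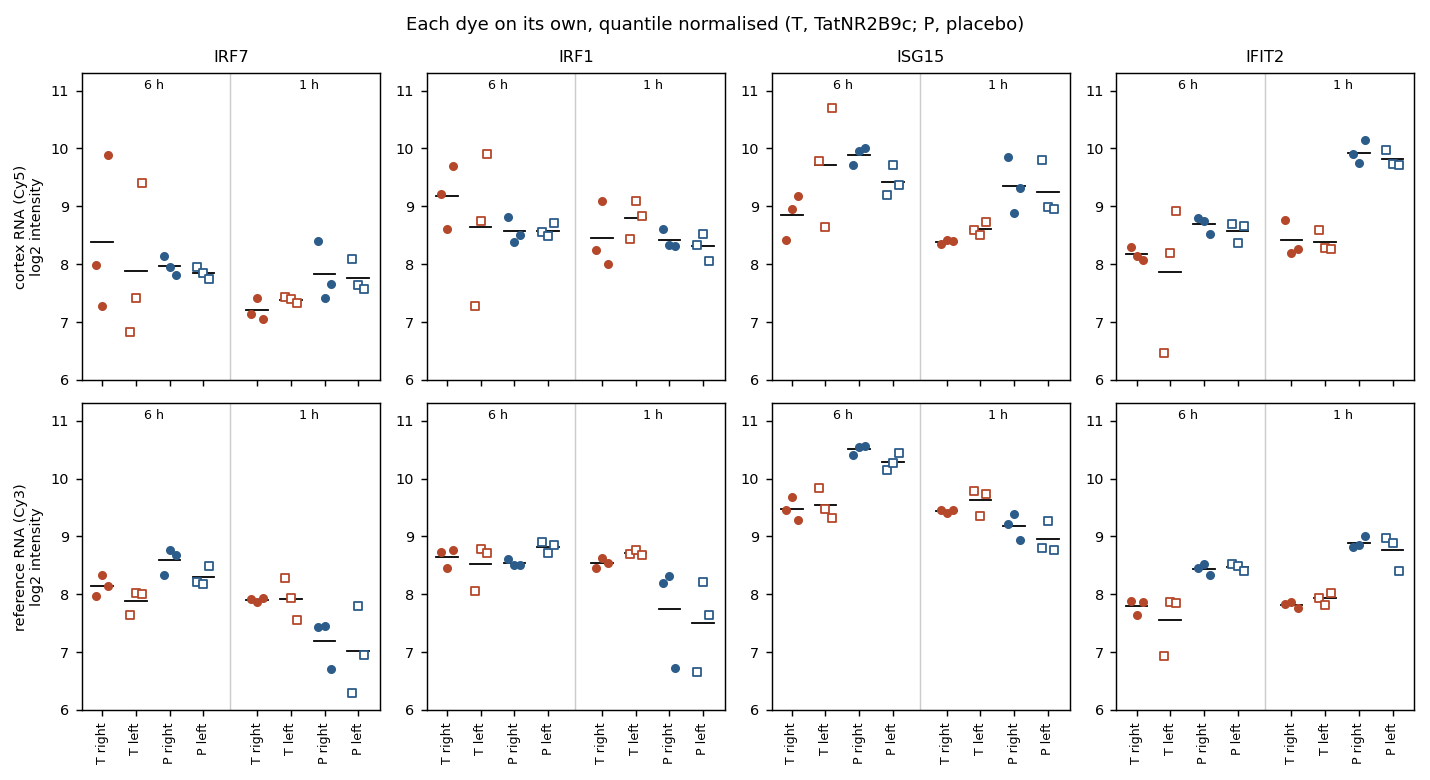
Log2 intensity of sample (Cy5, top row) and reference (Cy3, bottom row) for IRF7, IRF1, ISG15 and IFIT2 in the 8 groups, 1 point per array (n = 3). The reference dye of IRF7 averages 8.60 in placebo right cortex at 6 h and 7.20 in placebo right cortex at 1 h, while its Cy5 averages 7.97 and 7.83 in the same groups.

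Blood-cell markers moved in the same comparison. Of 10 neutrophil and red-cell marker genes listed, 7 were kept, and only 1 of them was well above background on all 24 arrays. Their mean log2 ratio per array ran between -0.53 and 1.42 in TatNR2B9c left at 6 h and between -1.79 and -0.79 in placebo left at 6 h. On the right it ran between -0.58 and 0.64 in TatNR2B9c and between -1.79 and -1.59 in placebo. Both upper ends are TatNR2B9c animal 3. In left cortex at 6 h 3 of the 7 rose in TatNR2B9c (median difference 1.68), and in right cortex 2 of the 7 (median difference 1.21). In Cy5 alone the marker medians were 1.13 (left) and 1.01 (right), and those of the members were 0.06 and -0.12. The mean of the 8 members on the arrays of animal 3 was -0.17 (left) and -0.62 (right), at the top of groups that reached down to -1.16 and -1.12. Lymphocyte markers gave 4 higher and 1 lower of 6 on the left, and meningeal and choroid markers gave 3 higher of 9 on the left and 2 of 9 on the right. Astrocyte markers gave 1 higher of 8 on each side, and endothelial and mural markers 1 higher of 9 on the left and none on the right. Oligodendrocyte markers gave 2 lower of 7 on the left (median -1.19) and none on the right (median -0.02), neuron markers gave 1 lower of 9 on the left (median -0.63) and none on the right (median -0.60), and microglia and macrophage markers gave none of 12 on either side. Of all probes, 24.6% passed on the left (10.8% as higher) and 4.3% on the right. The part of these markers in the member differences was not tested.

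**Figure D4:**
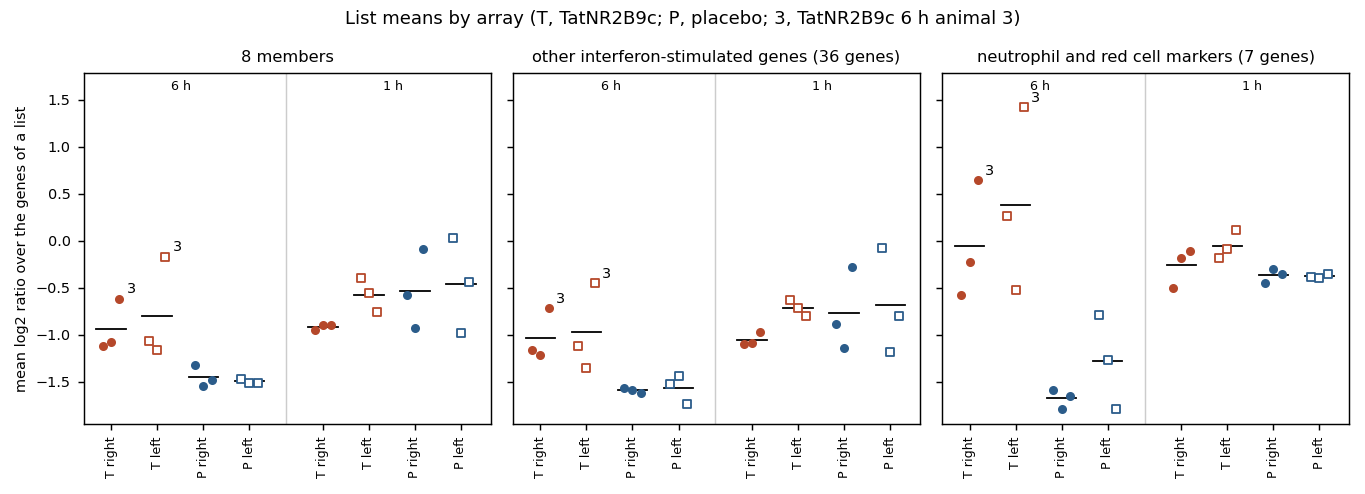
Mean log2 ratio per array of the 8 members, of 36 other interferon-stimulated genes and of 7 neutrophil and red-cell markers, in the 8 groups (n = 3 arrays each). The digit 3 marks TatNR2B9c animal 3 at 6 h, which is the highest of its group in each list, at 1.42 (left) and 0.64 (right) for the blood-cell markers.

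Other interferon-stimulated genes at 6 h showed 6 higher and 1 lower of 36 in TatNR2B9c left cortex, where 24.6% of all probes passed, 10.8% as higher. Their median difference was 0.67 (all probes -0.07) but -0.05 in Cy5 alone. The highest were the chemokines CXCL10 (1.71, SE 0.46, adjusted p = 0.0128) and CXCL11 (1.68, SE 0.33, adjusted p = 0.0022), then the membrane protein PLSCR1 (1.60, SE 0.46, adjusted p = 0.0187) and IFI44 (1.24, SE 0.33, adjusted p = 0.0126), all by limma. CXCL10 also passed in Cy5 alone, at 1.20 (adjusted p = 0.0234, limma). CXCL11 (1.06), PLSCR1 (0.19) and IFI44 (-0.10) did not pass in Cy5 alone. On the right none of the 36 passed, where 4.3% of all probes did, and the median was 0.63. DDX58, the RNA sensor RIG-I, was higher by 0.44 on the left (adjusted p = 0.0105) and 0.49 on the right (adjusted p = 0.0218), and in Cy5 by 0.73 (adjusted p = 0.00772) and 0.61 (adjusted p = 0.027). It was the 1 sensor of 11 to pass.

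Among the other IRFs, IRF8, the factor of microglia and other myeloid cells, was higher in TatNR2B9c cortex at 6 h on both sides, by 0.71 on the left (adjusted p = 0.0199) and 0.80 on the right (adjusted p = 0.0358), and its Cy5 alone differed by -0.47 and -0.12. IRF9, the DNA-binding subunit of the ISGF3 complex, was lower at 1 h on the right, by -0.62 (adjusted p = 0.0368). Among 10 STAT and brake genes, USP18, which removes ISG15 from proteins and blocks the interferon receptor, was higher on the left at 6 h by 0.79 (adjusted p = 0.0114) and STAT2 by 0.58 (adjusted p = 0.00137). In Cy5 alone USP18 differed by -0.17 and STAT2 by 1.38, and neither passed. PIAS4, a SUMO ligase, was lower on the right at 1 h (-1.45, adjusted p = 0.0347), on the right at 6 h (-1.33, adjusted p = 0.0304) and on the left at 6 h (-0.95, adjusted p = 0.0461), while its Cy5 alone differed by 0.73, 1.65 and 2.55. Of the 6 interferon genes kept, IFNA13 (-0.63) and IFNA6 (-0.61) were lower on the left at 6 h, and none of the 6 was well above background on 20 arrays. The receptors and their kinases gave no call of 9 at 6 h. Of all probes, 24.6% passed on the left at 6 h, 4.3% on the right at 6 h and 1.58% on the right at 1 h. P-values of these lists come from the limma fit over all probes.

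Time was compared within each treatment and side, as 6 h minus 1 h. Under TatNR2B9c, where both times were scanned in one campaign, no member passed on either side (limma), and 0% of all probes did. Differences lay between -0.35 and 0.32 on the right and between -0.69 and 0.35 on the left, with none at an unadjusted p under 0.05, although 19.3% of all probes on the right and 16.3% on the left reached that level. IRF7 differed by 0.22 on the right (95% interval -0.76 to 1.20) and -0.47 on the left (95% interval -1.45 to 0.51), ISG15 by 0.17 and 0.35, and IRF1 by 0.32 and -0.29. IFIT1 on the left, at -0.44, was the 1 member whose arrays did not overlap (they meet at -0.28 when rounded), as for 10.2% of all probes in that direction. Without animal 3 at 6 h, left out after seeing the data, IRF7 on the left differed by -1.04 (adjusted p = 0.0376, limma). Under TatNR2B9c no other member passed in that fit, nor did IRF7 on the right. The 6 h arrays then lay on a slide and scan day apart from the 1 h arrays. Time and scan day cannot be told apart in that fit. On the slide that held animal 3 of both times, the 6 h array exceeded the 1 h array for IRF7 by 0.63 (left) and 1.33 (right), for ISG15 by 1.93 and 0.63, and for IRF1 by 0.77 and 0.77, with 1 array each.

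Under placebo, 7 of 9 probes were lower at 6 h on the left and 5 of 9 on the right. On the left 23.2% of all probes passed as lower and 31% as higher (54.2% in all), and on the right 19.3% and 21.6% (40.9% in all). IRF7 averaged -2.35 ± 0.45 at 6 h and -0.14 ± 0.20 at 1 h in placebo right cortex (SD, n = 3 each), a difference of -2.21 (SE 0.47, 95% interval -3.19 to -1.23, adjusted p = 0.00117). On the left it averaged -1.96 ± 0.35 and -0.22 ± 0.43 in the same order, a difference of -1.74 (SE 0.47, adjusted p = 0.00455). IRF1 differed by -1.47 on the left (SE 0.31, adjusted p = 0.00074) and -1.01 on the right (SE 0.31, adjusted p = 0.0153). ISG15 differed by -1.60 on the left (adjusted p = 0.0111) and -1.49 on the right (adjusted p = 0.0222), all by limma.

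Of the IFIT genes, IFIT2 was lower on both sides, by -0.89 on the left (adjusted p = 0.00765) and -0.82 on the right (adjusted p = 0.0167). IFIT1 (-0.64, adjusted p = 0.0319) and IFIT3 (-1.18, adjusted p = 0.0342) were lower on the left, and their right differences were -0.22 and -0.69. OAS1 probe 1 was lower by -0.47 on the left (adjusted p = 0.0459) and -0.50 on the right (adjusted p = 0.0447), whereas MX1 (-0.27 left, -0.37 right) and OAS1 probe 2 (0.07 and 0.04) did not pass. All 12 calls came with arrays that did not overlap, as seen in the lower direction for 26.4% of all probes on the left and 27.5% on the right. With arrays scaled to equal spread none of the 12 passed (limma), with IFIT2 on the left at 0.03, IFIT3 at -0.05 and IRF7 on the right at -1.17 (adjusted p = 0.0987). The 3 arrays of weakest reference signal were placebo left of animals 1 and 3 and placebo right of animal 3, all at 1 h. Without them IRF7 still passed on the right, and the other right calls did not. The left differences, with 1 placebo array left at 1 h, were -0.76 for ISG15, -0.51 for IFIT3 and -0.25 for IFIT1. The OAS1 probe 1 calls were lost in 25 of 38 alternatives and turned sign in 1 on the left, and were lost in 20 and turned sign in 2 on the right, and its Cy5 alone differed by -0.07 and 0.31.

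In the same comparison the sample dye and the reference dye moved differently for the IRFs and ISG15. Each dye alone was quantile normalised and the ratios by loess, so dye differences need not add up to the ratio difference. Cy5 alone differed by 0.08 (left) and 0.14 (right) for IRF7, by 0.27 and 0.15 for IRF1 and by 0.18 and 0.54 for ISG15. Cy3 alone, which carried the common reference, differed by 1.27 and 1.40 for IRF7, by 1.32 and 0.80 for IRF1 and by 1.33 and 1.33 for ISG15. IFIT2 was lower in Cy5 itself, by -1.23 (left, adjusted p = 0.0335) and -1.24 (right, adjusted p = 0.0213), and IFIT1 by -1.44 (left, adjusted p = 0.029) and -0.95 (right, adjusted p = 0.11). All 9 kept neuron markers rose in the same comparison on each side, by medians of 2.27 and 2.12, with Cy5 medians of 0.09 and 0.10. Oligodendrocyte markers gave 6 higher of 7 on the left and 3 on the right, and astrocyte markers 5 and 4 higher of 8. Lower with the members were 3 of 7 blood-cell markers on each side (medians -0.85 left and -1.21 right). So were 4 of 6 lymphocyte markers on each side, and 5 (left) and 4 (right) of 9 meningeal and choroid markers. Endothelial and mural markers gave 2 (left) and 1 (right) lower of 9. Microglia and macrophage markers gave 3 higher and 1 lower of 12 on the left, and 1 higher and 5 lower on the right. Of all probes, 23.2% (left) and 19.3% (right) passed as lower, and 31% and 21.6% as higher. The part of the markers was not tested. Time and scanning campaign cannot be told apart under placebo.

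Other genes of the pathway were called in both directions in that comparison, most of them lower. Of 36 other interferon-stimulated genes, 20 were lower and 3 higher on the left (median -0.98, all probes 0.11, Cy5 alone -0.05). On the right 13 were lower and 1 higher (median -1.01, all probes 0.05, Cy5 alone -0.27). The shares of all probes were 23.2% lower and 31% higher on the left, and 19.3% and 21.6% on the right. IFI44 differed by -2.40 on the left (adjusted p = 1.99e-05), the immunoproteasome subunit PSMB8 by -2.16, the death ligand TNFSF10 by -2.12 and CXCL10 by -2.03, and on the right PSMB8 differed by -2.47 and PARP14 by -1.78. The RNA sensor IFIH1 was lower by -1.86 (left) and -1.23 (right), IRF8 by -1.20 and -1.19, IRF3 by -1.26 and -1.16, and USP18 by -1.41 and -1.22. In the other direction, the brake SOCS1 was higher by 0.43 (left) and 0.47 (right), and on the left the sensor ZBP1 by 1.06 and the SUMO ligase PIAS1 by 0.67. The 10 STAT and brake genes gave 2 higher and 3 lower on the left and 1 higher and 2 lower on the right. IRF3 in Cy5 alone was higher, by 0.69 (left) and 1.06 (right, adjusted p = 0.0427). The interferon genes IFNA6, IFNA13 and IFNA14 were higher on both sides, 3 of 6, at signals that were not well above background on 20 arrays.

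**Figure D5:**
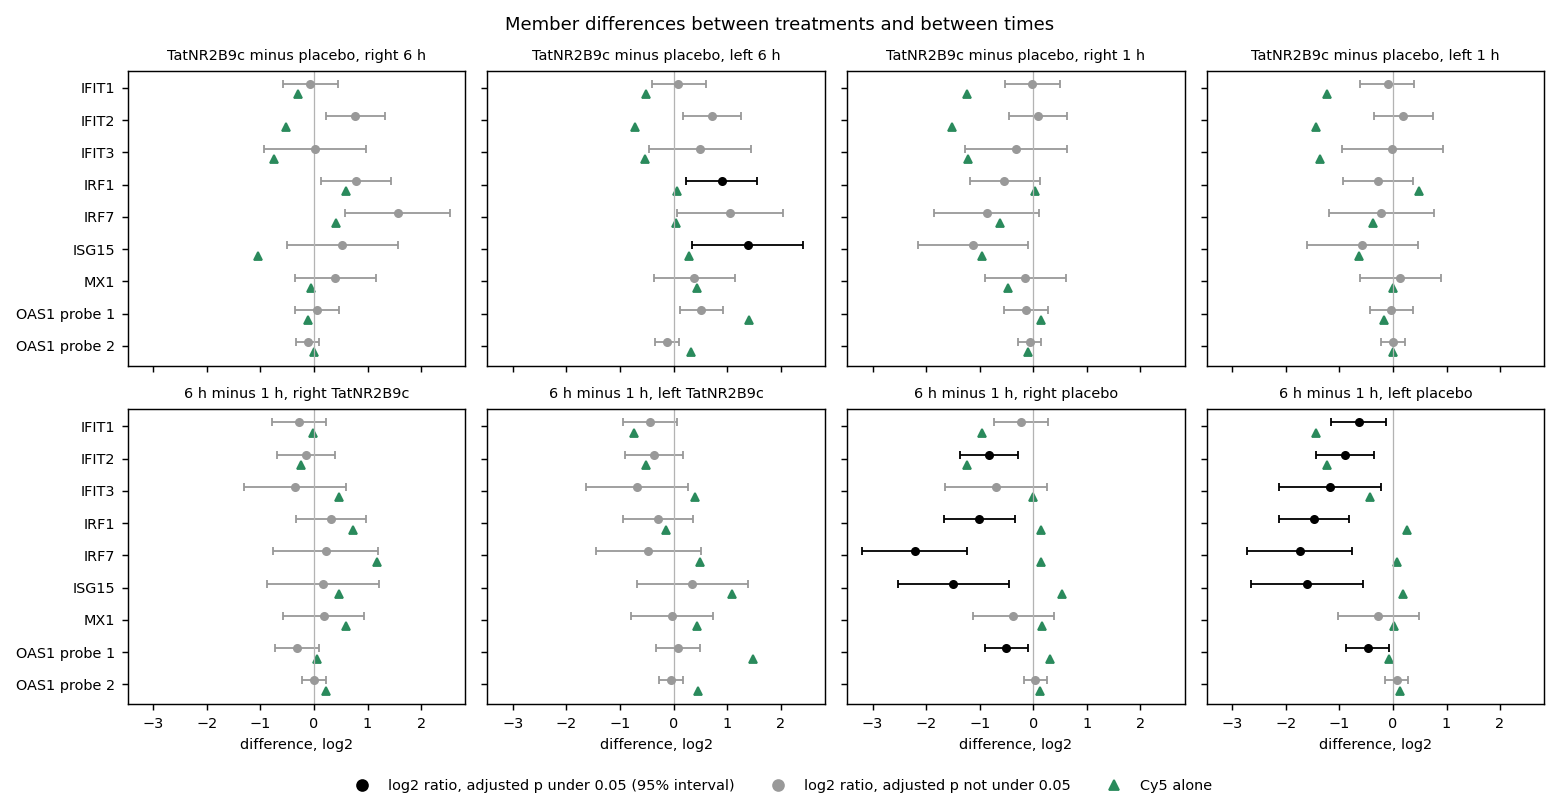
Differences in log2 ratio with 95% intervals for the 9 tested probes, in 8 panels: TatNR2B9c minus placebo on each side and at each time, and 6 h minus 1 h on each side under each treatment. Black marks an adjusted p under 0.05 and triangles show the difference in Cy5 alone; under placebo the IRF7 ratio falls by 2.21 (right) between the times while its Cy5 differs by 0.14.

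The comparisons were then set against each other by interaction terms. In right cortex the change with time differed between TatNR2B9c and placebo for IRF7, by 2.43 (SE 0.66, 95% interval 1.05 to 3.82, adjusted p = 0.0496, limma), 1 call of 9 probes, where 3.41% of all probes passed. Its time difference was 0.22 under TatNR2B9c and -2.21 under placebo. In Cy5 alone the term was 1.04 (adjusted p = 0.631), and in Cy3 alone -1.16. The term for IRF1 was 1.32 (adjusted p = 0.0987) and for ISG15 1.66 (adjusted p = 0.18). Blood-cell markers had 2 of 7 higher in the same term, with a median of 1.73, and their part was not tested. The other 3 interactions, treatment by side at 1 h, treatment by side at 6 h and side by time, gave 0 calls in 27 tests (0% of all probes), with values between -0.85 and 0.54, a smallest adjusted p of 0.922 and none at an unadjusted p under 0.05.

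The likeness of each well-detected member to other genes was described over the 24 arrays after subtracting the mean of each campaign, among 11567 probes, with no test. Arrays share labelling and depth, so these are descriptions. On log2 ratios, IRF7 was most like HCLS1 (Pearson r 0.91), a protein of blood-forming cells, then TLN1 (0.88) and RHBDL6 (0.86). ISG15 was most like IL1RN and LCP1 (0.91 each) and CEBPB (0.90), and IRF1 most like SERPINB1, CEBPB and TAP1 (0.85 each). IFIT3 was most like PARP14 (0.93), FSTL1 and EMP2 (0.90 each), and MX1 most like CRAT (0.84), HLA-B (0.79) and VKORC1 (0.78). IFIT1 was most like C9H10orf57 (0.88), MRPS28 (0.87) and PRKRIR (0.83), and IFIT2 most like PSMF1 (0.89), LPIN2 (0.88) and CDC37L1 (0.86). In Cy5 alone r was 0.11 for MX1 with CRAT, 0.14 with HLA-B and 0.51 with VKORC1, and 0.30 for IRF1 with CEBPB; for the other named pairs it was between 0.64 and 0.89.

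Among the 28 pairs of members, 24 had an r above 0, with a median of 0.38, against 0.06 for other probes and 0.24 in Cy5 alone. IFIT3 and IRF1 had an r of 0.83, and the neighbours IFIT1 and IFIT2 had 0.74 (0.76 in Cy5).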

How the data were processed

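RNA of 24 cortical samples was hybridised, 1 two-colour Agilent array each. Per the file headers, the deposited intensities are linear, unnormalised spot means and local background medians of each dye. Scanner software made the deposited log10 ratio (processed Cy5 over Cy3), per the file headers (Agilent Feature Extraction 9.5.3.1, 10.5.1.1 and 10.7.3.1 in the 3 campaigns; the submitters' processing notes name 10.7.3.1). The deposited series matrix repeats those log10 ratios to within 0.005, so its scale and direction are settled, with no centring beyond the software's. The deposited flags mark spots well above background or not uniform, per the file headers. Array number limits the precision.

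Background was corrected by limma's normexp (offset 50) and ratios normalised by loess within each array, with the 1417 control spots at weight 0. Non-uniform spots were left out and the spots of a probe (median 2) averaged. Of 20217 probes, 17226 were kept: those that 1 or more groups had well above background in Cy5 on all 3 arrays. Cy5 and Cy3 alone were quantile normalised, so their differences need not add up to those of the ratios. All 24 arrays were fitted together in limma (lmFit, eBayes, two-sided) with 1 mean per group, in 17 comparisons, and p was Benjamini-Hochberg adjusted over all kept probes of a comparison, with a threshold of 0.05. No test of gene sets was made. A fold is 2 to the power of the difference. Replicates are 3 animals per group, per the labels, and the right and left groups share their animals.

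All probes of the members are named. A gene of a pathway list was read by its brightest kept probe and named if it passed, at most 4 per list and comparison by size of difference; 1 gene that met this rule is not reported here. Likeness named the 3 symbols of highest Pearson r for members well above background on at least 20 arrays. The members, lists and rules were chosen with earlier results of these data known. Right and left samples with the same number were read as 1 animal, from the labels; their deviations from group means correlated between -0.71 and 0.68, over 0.1 in 6 of 12 animals. Alternatives were other normalisations and filters, Cy5 alone, blocks, array weights and leaving out arrays. Tools were R 4.3.3, limma 3.58.1, the data.table package (1.17.8), jsonlite 2.0.0, Python 3.11.15, numpy 2.4.6, pandas 2.3.3 and matplotlib 3.10.9. The test was checked on simulated data.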

Additional observations from a re-analysis of the deposited data

Results flagged for a closer look

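The change of IRF7 with time in right cortex differed between TatNR2B9c and placebo by 2.43 on the log2 scale (limma, adjusted p = 0.0496), which was tested by an interaction term. It was higher at 6 h than at 1 h by 0.22 under TatNR2B9c and fell by 2.21 under placebo. Of the 3 TatNR2B9c right arrays at 6 h, 1 stood at 0.52 and the other 2 at -1.12 and -1.77. Campaign and this term cannot be told apart, since the placebo arrays of 1 h and 6 h and the TatNR2B9c arrays were scanned in 3 campaigns.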

How the results depend on the processing

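Right minus left gave no member call under any alternative run, pooled or in the 4 sets (limma), and leaving out single arrays left both counts between 0 and 0. TatNR2B9c against placebo gave 2 member calls: 1 with the software's processed ratios, 1 with the series matrix, 14 with median centring, 0 with arrays of equal spread, 6 with Cy5 alone, 0 with only the groups compared, 7 with array weights, 1 with scan day as a block, 0 without both arrays of TatNR2B9c 6 h animal 3 (added after seeing the data), and 0 to 5 when single arrays were left out. The 14 with median centring and the 6 with Cy5 alone were all at 1 h. The call with processed ratios, and with the series matrix, was ISG15 on the left at 1 h, lower by -1.97. The 2 main calls, IRF1 and ISG15 on the left at 6 h, passed in none of these settings (0.19 and 0.47 with median centring). Time gave 12 calls: 6 with processed ratios, 6 with the series matrix, 16 with median centring (MX1 -2.59 right and -2.83 left among those gained), 0 with equal spread, 3 with Cy5 alone, and 7 to 12 when single arrays were left out. Leaving out the 3 arrays of weakest reference signal left 1 array in placebo left at 1 h. On the right under placebo, IRF7 alone still passed in that fit. Interactions gave 1 call (IRF7): 0 with processed ratios, series matrix, median centring, equal spread, Cy5 alone, no filter on dim probes, only the groups compared or without the weakest-reference arrays, 2 with array weights, and 0 to 2 when single arrays were left out. IRF7's call was lost in 25 of 38 alternatives (range 1.04 to 3.95), ISG15's at left 6 h in 26 of 38 (0.28 to 1.92) and IRF1's in 16 of 38 (0.06 to 1.25); for time, OAS1 probe 1's were lost in 25 (left) and 20 (right) of 38 and turned sign in 1 and 2. With the animal as replicate block, TatNR2B9c against placebo gave 3 calls, the added one IFIT2 on the left at 6 h (0.72, adjusted p = 0.0497, limma), and no other call changed; as a fixed block it could not be fitted for treatment, time or treatment by time.

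Some signs turned. With Cy5 alone, IFIT2 at 1 h was -1.52 (right) and -1.43 (left) for TatNR2B9c against placebo, and for 6 h minus 1 h under placebo IRF1 was 0.15 (right) and 0.27 (left), IRF7 0.14 and 0.08, ISG15 0.54 and 0.18, and OAS1 probe 1 0.31 (right). With equal spread, ISG15 was 0.18 on each side and IFIT2 0.03 (left). With median centring, OAS1 probe 1 was 0.32 (right) and 0.22 (left) for time, and for TatNR2B9c against placebo at 1 h IFIT2 was -2.21 (right) and -2.54 (left), MX1 -2.72 (left), and OAS1 probe 2 0.92 (right) and 1.37 (left). The causes were not tested.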
